A study of Homo sapiens with 12 samples.

Results

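The genes described here are the heat shock proteins and the DNAJ co-chaperones of 2 human melanoma cell lines, MeWo and SkMel28, with and without induction of a hairpin against MITF, the melanocyte lineage transcription factor. They were chosen by symbol alone: HSPA or HSPB followed by a digit, any symbol beginning with HSP90 or DNAJ, and HSPD1, HSPE1 and HSPH1. This gave 60 of the 12616 listed genes, after 2 hyphenated symbols were set aside. By family, 24 were DNAJC, 11 HSP70, 9 DNAJB, 4 DNAJA, 4 HSP90 and 3 HSP110. Another 3 with an HSPB symbol were counted as small heat shock proteins, and 2 were the HSP60 and HSP10 pair. By the compartment in which the protein is known to work, 32 were placed in the cytosol and nucleus, 13 in the endoplasmic reticulum (ER), 8 in mitochondria, and 7 elsewhere or nowhere, among them the pseudogene HSP90AB4P.

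Both lines carry a doxycycline (Dox) inducible short hairpin against MITF, and were received by the study as a gift. Cells were kept for 8 days with Dox at 1 µg/ml (MeWo Dox, SkMel28 Dox) or with none (MeWo control, SkMel28 control), with 3 libraries in each of the 4 groups. Per the labels MeWo was grown in EMEM and SkMel28 in RPMI, whereas the study's methods name RPMI for both. Whether the medium differed is thus not settled by the sources used here, and if it did, line and medium cannot be told apart. No line without the hairpin was given Dox, so that MITF silencing and Dox itself cannot be told apart. Each library was a QuantSeq library, in which 1 read is taken from the 3′ end of a transcript, so that values of different genes do not compare transcripts per length and are set side by side only within a gene or as sums.

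Molecular chaperones bind unfolded stretches of other proteins and keep them from aggregating until they fold. HSP70 proteins do this in cycles of ATP binding and hydrolysis, DNAJ proteins bring them their clients and start the hydrolysis through the J domain, and HSP110 proteins exchange the nucleotide. HSP90 acts later, on nearly folded clients such as kinases and steroid receptors. Small heat shock proteins hold unfolded clients without using ATP. The cytosol, the ER and mitochondria each have an HSP70 and DNAJ partners of their own. Heat shock factor 1 is the main activator of the cytosolic genes on heat or proteotoxic stress, through the heat shock element, and the unfolded protein response activates the ER genes through the ER stress element.

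Libraries held 2568187 to 3714608 reads, of which 5.69% to 8.55% fell on 67 synthetic spike-ins and 1.01% to 1.15% of the gene reads on the 60 genes. Values are normalised counts (reads scaled to a fixed effective library size of 1000000), in which 1 read was worth 0.278 to 0.389, and 2 of the 60 genes had under 10 reads in every library. MITF fell from 657, 663 and 708 in MeWo control to 451, 354 and 371 in MeWo Dox, and from 861, 739 and 792 in SkMel28 control to 575, 578 and 552 in SkMel28 Dox. The 6 melanocyte markers looked for (MITF, SOX10, PMEL, MLANA, TYR, DCT) were all listed, and their sum was 10918 to 11198 in MeWo control and 5806 to 7098 in MeWo Dox, and for SkMel28 10897 to 12185 without Dox and 6511 to 6739 with it. Of 11 markers of keratinocytes, fibroblasts, immune and endothelial cells only DCN and LUM were listed, with sums of 41.5 to 47.8, 9.85 to 19.2, 10.9 to 13.3 and 6.04 to 8.91 in the same order of groups, and their part in the results was not tested. MeWo Dox replicate 1 stood apart from its replicates: chi-square per degree of freedom over genes was 16.5 to 18.9 in its 2 pairs and 1.57 to 5.76 in the other 10 replicate pairs. Counts and calls of the 60 genes are given with and without it, as are the MeWo counts of the other gene lists. Nothing in the labels says that the 3 libraries of a group came from separate cultures, so p-values measure the spread between these libraries, which may be technical. Because these are bulk samples, fewer cells carrying a transcript and less of it per cell cannot be told apart.

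The stretches before the start sites of 6 of the genes are shown first, since each of the 6 was called with Dox in 1 of the lines and they hold, or lack, the elements through which the unfolded protein response and heat shock factors are known to act. Each is the 250 bases before a RefSeq start, 5′ to 3′ on the gene's strand (GRCh38.p14), in lower case. A gene can have several such starts. The stretch shown is the first that holds the element marked (for DNAJB11 the first listed), so that its presence there was set by this choice. The stretches of HSP90B1, DNAJB11, HSP90AA1 and DNAJA4 lie inside the loci given below, past their outer ends. Capitals mark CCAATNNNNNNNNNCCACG, the ER stress element, on either strand in HSPA5 and HSP90B1, and the heat shock element of 3 units (GAANNTTCNNGAA or TTCNNGAANNTTC) in HSP90AA1 and HSPA6. In DNAJA4 they mark CATGTG, an E-box of the kind the MITF family can bind, on both strands, where 2 matches overlap. DNAJB11 held none of these and is shown for comparison.
HSPA5, chr9:125241344-125241593, minus strand: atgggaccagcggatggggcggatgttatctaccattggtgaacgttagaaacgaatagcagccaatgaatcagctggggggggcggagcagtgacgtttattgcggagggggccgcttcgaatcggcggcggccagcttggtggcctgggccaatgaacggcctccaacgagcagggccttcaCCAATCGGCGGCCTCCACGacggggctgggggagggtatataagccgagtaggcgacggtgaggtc
HSP90B1, chr12:103930160-103930409, plus strand: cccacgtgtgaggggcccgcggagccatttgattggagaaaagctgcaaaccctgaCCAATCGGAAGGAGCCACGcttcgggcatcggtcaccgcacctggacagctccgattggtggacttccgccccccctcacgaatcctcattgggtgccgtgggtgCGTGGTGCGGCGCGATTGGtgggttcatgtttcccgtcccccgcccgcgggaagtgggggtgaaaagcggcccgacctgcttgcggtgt
DNAJB11, chr3:186570470-186570719, plus strand: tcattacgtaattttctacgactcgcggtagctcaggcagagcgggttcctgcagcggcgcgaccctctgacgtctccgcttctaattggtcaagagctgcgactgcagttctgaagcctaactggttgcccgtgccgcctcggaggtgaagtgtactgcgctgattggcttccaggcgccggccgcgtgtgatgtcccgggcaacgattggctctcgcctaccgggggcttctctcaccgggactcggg
HSP90AA1, chr14:102087045-102087294, minus strand: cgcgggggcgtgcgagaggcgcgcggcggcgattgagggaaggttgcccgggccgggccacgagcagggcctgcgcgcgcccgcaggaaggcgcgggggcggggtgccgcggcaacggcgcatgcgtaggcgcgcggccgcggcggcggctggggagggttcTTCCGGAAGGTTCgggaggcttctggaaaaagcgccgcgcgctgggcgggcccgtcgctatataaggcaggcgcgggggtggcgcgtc
HSPA6, chr1:161524290-161524539, plus strand: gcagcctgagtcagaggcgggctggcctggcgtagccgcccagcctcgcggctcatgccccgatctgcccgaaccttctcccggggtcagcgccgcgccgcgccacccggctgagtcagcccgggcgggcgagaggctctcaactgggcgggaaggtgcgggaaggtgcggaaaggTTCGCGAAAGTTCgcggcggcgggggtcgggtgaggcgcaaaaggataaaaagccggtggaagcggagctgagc
DNAJA4, chr15:78265968-78266217, plus strand: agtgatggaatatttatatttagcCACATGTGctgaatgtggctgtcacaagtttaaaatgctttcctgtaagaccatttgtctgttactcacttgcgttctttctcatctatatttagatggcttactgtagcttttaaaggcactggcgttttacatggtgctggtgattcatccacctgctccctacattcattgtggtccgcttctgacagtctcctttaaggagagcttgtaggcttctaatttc

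At least 1 RefSeq window was found for 54 of the 60 genes, 73 windows in all, and a gene was counted if any of its windows held the letters. The ER stress element was in the windows of 25 of 27305 genes (0.0916%), and HSPA5 and HSP90B1 were the only members among them. It ended 47 bases before the start of HSPA5, and in HSP90B1 it lay 175 bases before the start on the gene's strand and 70 bases before it on the opposite strand. The related ER stress element II, ATTGGNCCACG, was in 18 genes (0.0659%) and in no member. The heat shock element was in 152 genes (0.557%) and in 6 members: DNAJB6, HSP90AA1, HSP90AB1, HSPA6, HSPA8 and HSPD1. CACGTG was in 2110 genes (7.73%) and 8 members (DNAJB9, DNAJC8, DNAJC12, DNAJC16, HSP90B1, HSPA9, HSPD1 and HSPE1), and CATGTG in 3129 genes (11.5%) and 5 members (DNAJA4, DNAJC9, DNAJC12, DNAJC13 and HSPA4L). Both strands were searched, and the forms of the heat shock element can overlap, as they do in HSPD1. A match describes the letters only.

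In MeWo, 4 of the 13 ER genes were called higher with Dox and none lower, and of the 32 cytosolic and nuclear genes 2 were called higher and 7 lower. Of the 60 genes, 14 (23.3%) were called at an adjusted p under 0.05, beside 16.7% of all genes. The 6 called higher (10%, beside 8.58% of all genes) were HSPA5, HSP90B1, DNAJB11 and DNAJC1 in the ER, and HSPA6 and DNAJC7 in the cytosol. The 8 called lower (13.3%, beside 8.12%) were HSPA1A, HSPA2, HSPB1, HSPB8, HSPH1, HSP90AA1 and DNAJC9 in the cytosol and nucleus, and HSPB11, which works in cilia. Adjusted p-values here and below are from limma's test with Benjamini-Hochberg adjustment over all 12616 genes, and changes are on the log2(value + 1) scale with their standard error. At an unadjusted p under 0.05 there were 27 of the 60, beside 3860 of all 12616 genes. The median change of the 60 was -0.12, against a median of 0 over all genes.

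The summed level of the 13 ER genes rose in MeWo from 1301, 1308 and 1351 to 2023, 2276 and 2490.4, which is 71.5% on the group means (1320 ± 27.2 to 2263 ± 234, SD, n = 3). That of the 32 cytosolic and nuclear genes went from 8618, 8452 and 8484 to 7433, 7289 and 7085, a difference of -14.7%, and that of the 8 mitochondrial genes from 796, 819 and 808 to 718, 736 and 762, a difference of -8.58%. In none of these 3 sums did the Dox libraries overlap the control libraries. Taking all 60 genes together the sum differed by -3.42%. The sums were not tested, and are led by a few genes. They were taken at the deposited scaling only, and scaling to the spike-ins, described below, shifts the median gene of MeWo by 0.22 on the log2 scale. HSPA5 and HSP90B1 held 76.5% of the ER sum in MeWo control and 84.0% in MeWo Dox, and the other 11 ER genes went from 310 ± 9.35 to 361 ± 9.39. HSP90AA1 and HSP90AB1 held 63.8% to 66.3% of the cytosolic sum in the 4 groups.

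**Figure D1:**
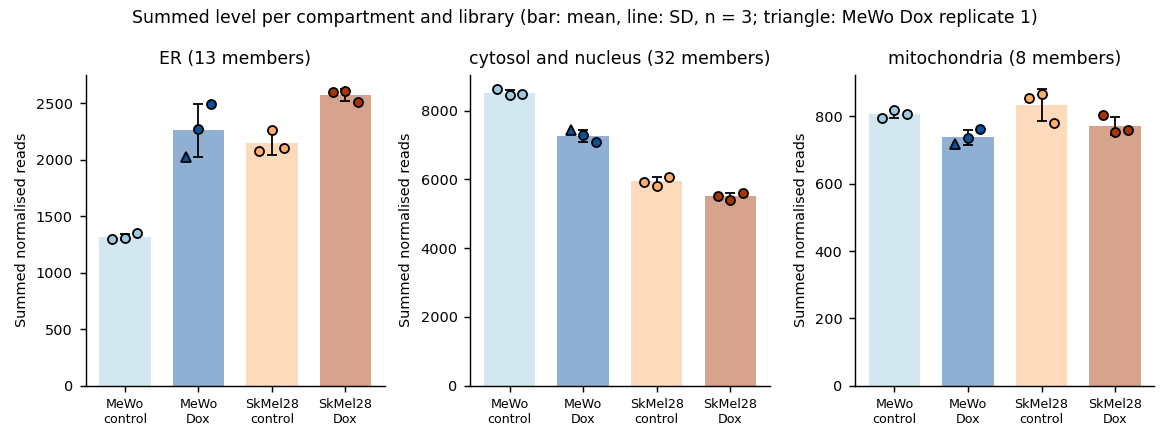
Summed normalised counts of the ER, cytosolic and nuclear, and mitochondrial genes in each library of the 4 groups; bars are means, lines are SDs (n = 3), and the triangle is MeWo Dox replicate 1. The ER sum is higher with Dox in all 3 MeWo libraries (2023 to 2490.4 against 1301 to 1351), while the cytosolic sum is lower (7085 to 7433 against 8452 to 8618). The same directions are seen in SkMel28, with ER sums of 2513 to 2607 against 2079 to 2269. The SkMel28 cytosolic sums are 5405 to 5612 against 5821 to 6077.5.

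Of the 13 ER genes, 4 rose in MeWo (30.8%, beside 8.58% of all genes) and none was called lower. HSPA5 encodes BiP, the HSP70 of the ER lumen and sensor of unfolded proteins (chr9:125234853-125241382 of hg38, minus strand). Its normalised counts were 669, 665 and 700.2 in MeWo control and 1087, 1211 and 1221 in MeWo Dox, so that the lowest Dox library lay well above the highest control. It rose by 73.0% (log2 change 0.79, SE 0.10, adjusted p = 1.65e-05). HSP90B1 encodes GRP94, the HSP90 of the ER (chr12:103930107-103953931, plus strand). It had 327, 322 and 347 in control and 579, 711 and 898 with Dox, and was thus the ER gene with the highest fitted change: 2.20-fold (log2 change 1.11, SE 0.16, adjusted p = 9.73e-05). These are the members whose windows above hold the ER stress element. DNAJB11, described next, rose as well and held none in its windows, and a relation of element and change was not tested.

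DNAJB11 encodes ERdj3, a secreted and luminal J protein that hands clients to BiP (chr3:186567403-186585800, plus strand). Its counts were 51.8, 41.6 and 39.8 in control and 65.1, 84.5 and 93.8 with Dox, without overlap (log2 change 0.85, SE 0.15, adjusted p = 0.000889). Its locus overlaps TBCCD1, another listed gene on the opposite strand, and whether counting used strand is not given in the sources used here. DNAJC1, a membrane J protein that also binds ribosomes (chr10:21756548-22003769, minus strand), went from 21.9, 26.4 and 20.4 to 35.7, 31.1 and 36.9 (log2 change 0.58, SE 0.19, adjusted p = 0.0413). The DNAJC1 call was lost without MeWo control replicate 1 or 3, MeWo Dox replicate 3, SkMel28 control replicate 3 or SkMel28 Dox replicate 1, with adjusted p-values of 0.0503 to 0.15. Those of HSPA5, HSP90B1 and DNAJB11 held in each of 22 alternatives, leaving out any library included.

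The other ER genes were not called in MeWo. DNAJB9, which encodes ERdj4 and returns BiP to the stress sensor IRE1, had 19.0, 13.99 and 19.8 in control and 21.1, 13.6 and 12.5 with Dox (adjusted p = 0.623). DNAJC3, which encodes the luminal J protein p58IPK, had 26.8, 30.7 and 30.1 against 25.9, 22.4 and 23.0. The DNAJC3 groups did not overlap, with Dox lower, but the log2 change, -0.29, did not pass the threshold (adjusted p = 0.268). Fitted changes of the remaining 7 ran from -0.20 for HSPA13, a microsomal HSP70, to 0.69 for DNAJC14 (adjusted p = 0.609 and 0.21). The median of all 13 ER genes was 0.13, and 7 of the 13 had a fitted change above 0. Without MeWo Dox replicate 1, DNAJC14 was called higher too (adjusted p = 0.018), which made 5 ER genes higher and none lower.

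**Figure D2:**
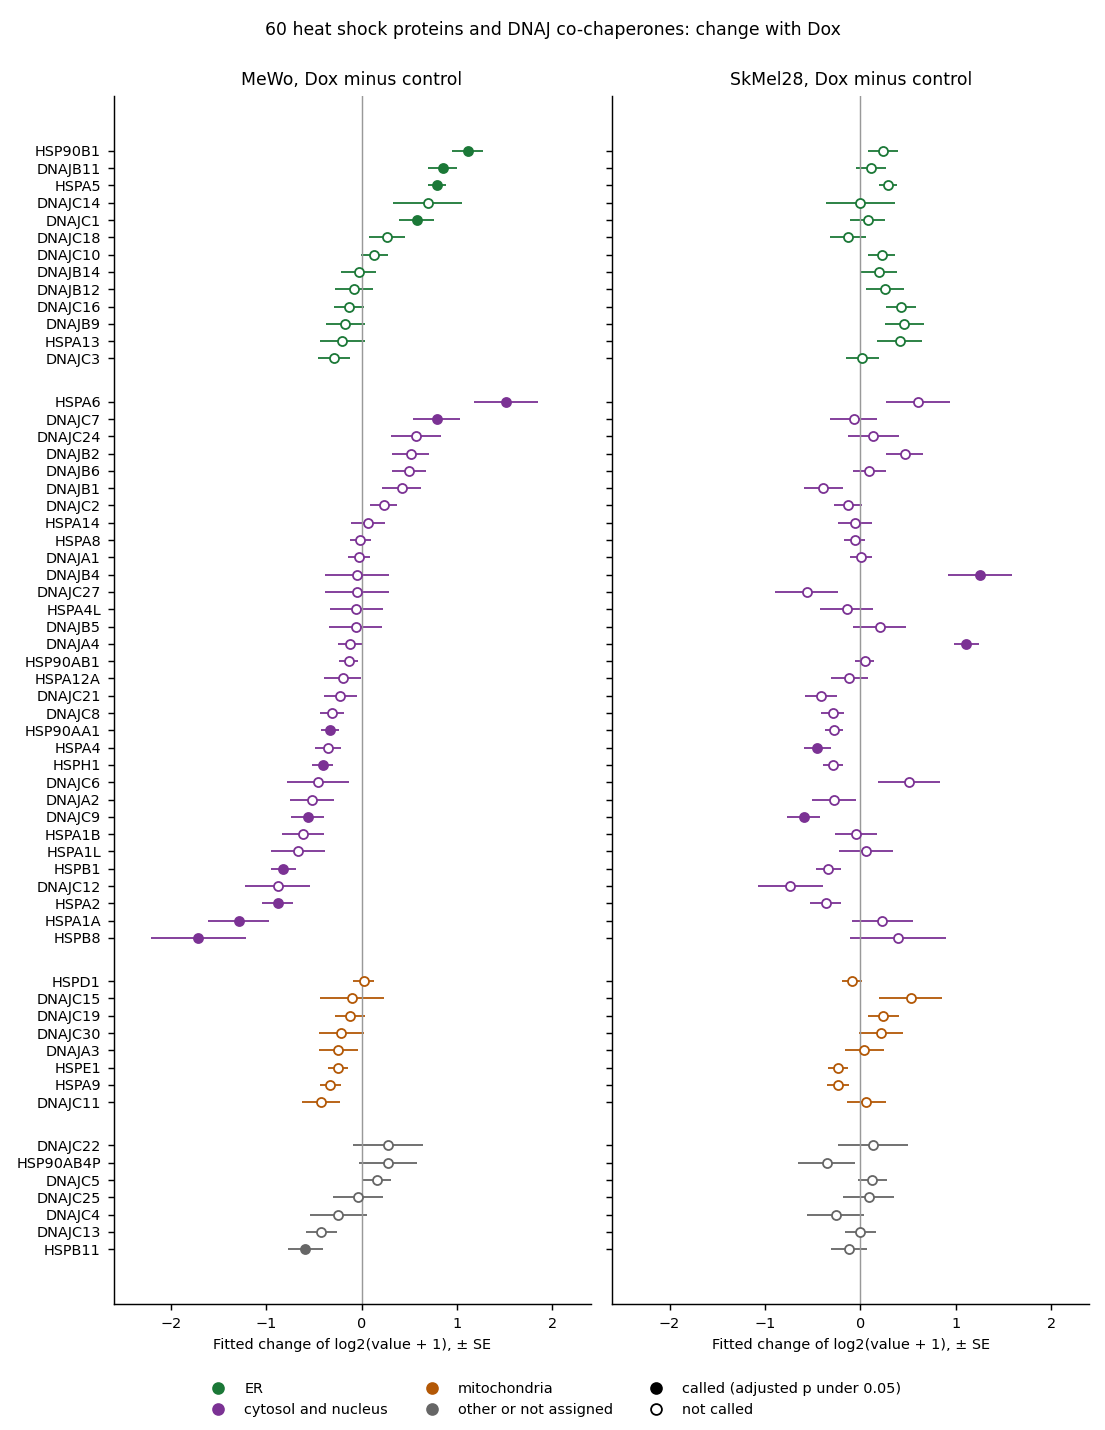
Fitted change of log2(value + 1) between Dox and control for each of the 60 genes, in MeWo and in SkMel28, by compartment; lines are standard errors and filled points are called at an adjusted p under 0.05. In MeWo 4 ER points are filled to the right of 0 and 7 cytosolic points to the left, and in SkMel28 no ER point is filled.

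Of the HSP70 proteins of the cytosol, HSPA1A and HSPA2 were called lower and HSPA6 higher in MeWo. HSPA1A, the main stress-inducible HSP70 (chr6:31815543-31817946, plus strand), had 441, 424 and 428 in MeWo control and 395, 98.2 and 140.2 in MeWo Dox. It was lower in all 3 Dox libraries, slightly so in replicate 1 and by far in the other two. The call (log2 change -1.29, SE 0.32, adjusted p = 0.0102) was lost without Dox replicate 2 or 3 (adjusted p = 0.0538 and 0.0539) and with DESeq2 (adjusted p = 0.104), and without replicate 1 the change was -1.87. HSPA1B, a neighbour with a nearly identical product (chr6:31827738-31830254, plus strand), had 36.3, 40.4 and 45.7 against 29.7, 18.2 and 33.2 (-0.61, adjusted p = 0.0683), and was called without Dox replicate 1 (-0.70, adjusted p = 0.0289). In the last 500 bases of the transcript 22.2% of the 50-base windows of HSPA1A also occur in HSPA1B, and how reads that fit several genes were counted is not given in the sources used here, so the split between the pair is uncertain. Their sum was 478, 465 and 474 in control and 424, 116 and 173 with Dox.

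HSPA8, the constitutive HSP70 of most cells, had 329, 348 and 327 in MeWo control and 296, 368 and 333 with Dox, and its groups overlapped (adjusted p = 0.949). HSPA2, best known for its role in male germ cells (chr14:64535905-64546173, plus strand), fell from 10.1, 8.55 and 10.7 to 4.47, 5.31 and 4.74, on 14 to 35 reads a library (-0.88, SE 0.16, adjusted p = 0.000939). HSPA6, a strictly stress-inducible HSP70 (chr1:161524540-161526894, plus strand), had 1, 0 and 1 reads in MeWo control and 11, 5 and 6 with Dox (adjusted p = 0.00471). Against a floor of 3 reads in each control library this was at least 2.13-fold higher, and 19.3% of the windows at the end of the HSPA6 transcript also occur in the related HSPA7.

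HSP90AA1, the stress-responsive form of cytosolic HSP90 (chr14:102080742-102139699, minus strand), had 2471, 2569.7 and 2426 in MeWo control and 1992, 2073 and 1886 with Dox, without overlap. This was a fall of 20.3% (log2 change -0.33, SE 0.09, adjusted p = 0.0248). The call was lost without any 1 of the MeWo control libraries or without Dox replicate 3 (adjusted p = 0.0621 to 0.108), and its locus overlaps WDR20 on the opposite strand. HSP90AB1, the constitutive form, had 3222, 2969.9 and 3168 against 3071, 2719 and 2731 and was not called (adjusted p = 0.376). HSPH1, the HSP110 that recharges HSP70 with ATP (chr13:31134973-31162388, minus strand), fell from 219, 244 and 215 to 166, 169 and 174 (-0.41, SE 0.11, adjusted p = 0.0146), a call lost without MeWo control replicate 2 (adjusted p = 0.087). HSPA4, another HSP110, had 95.6, 96.0 and 97.8 against 89.1, 77.7 and 62.0 and was not called (-0.35, adjusted p = 0.0956), though it was without Dox replicate 1 (-0.47, adjusted p = 0.00907).

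The 3 genes listed under an HSPB symbol were all called lower in MeWo, beside 8.12% of all genes. Of the 3 calls only that of HSPB1 held in every alternative. HSPB1, or HSP27, which binds unfolded proteins and actin (chr7:76302673-76304295, plus strand), had 780.1, 775 and 749 in control and 487, 433 and 388 with Dox, with the lowest control far above the highest Dox library. It fell by 43.2% (log2 change -0.82, SE 0.13, adjusted p = 0.00029), a call held in all 22 alternatives. Of its windows near the transcript end, 21.7% also occur in the pseudogene HSPB1P1. HSPB8, which works with BAG3 in selective autophagy (chr12:119171555-119224855, plus strand), had 13.8, 13.2 and 27.5 against 4.47, 1.90 and 9.82, on 5 to 85 reads (-1.71, SE 0.50, adjusted p = 0.0259). HSPB11, a part of the transport machinery of cilia, had 24.5, 25.6 and 31.7 against 23.3, 15.5 and 15.2 (-0.59, SE 0.19, adjusted p = 0.0379). The HSPB8 call was lost without MeWo control replicate 3 or Dox replicate 2 (adjusted p = 0.131 and 0.127) and with DESeq2 (adjusted p = 0.0824). That of HSPB11 was lost in 13 of 22 alternatives, among them edgeR (adjusted p = 0.0555) and the omission of any 1 MeWo control library, of MeWo Dox replicate 2 or 3, of SkMel28 control replicate 3 or of SkMel28 Dox replicate 1 or 2 (adjusted p = 0.0511 to 0.163).

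Of the DNAJ proteins of the cytosol and nucleus, DNAJC7 was called higher and DNAJC9 lower in MeWo. DNAJC7, which binds HSP70 and HSP90 together (chr17:41976421-42021376, minus strand), had 99.6, 105 and 119 in control and 109, 229 and 258 with Dox. Replicate 1 lay within the control range and the other two well above it, and the call (0.79, SE 0.24, adjusted p = 0.0343) was lost without any 1 of the MeWo control libraries or without Dox replicate 2 or 3 (adjusted p = 0.065 to 0.177). Without replicate 1 the change was 1.17 (adjusted p = 2.08e-05). The DNAJC7 locus overlaps CNP and NKIRAS2 on the opposite strand. DNAJB1, the main J partner of stress-inducible HSP70, had 264, 201 and 199 against 186, 379.8 and 361, so that Dox replicate 1 lay below every control library and the other two above them. It was not called (0.42, adjusted p = 0.176), and was without replicate 1 (0.75, adjusted p = 0.000212). DNAJC9, which is also a histone chaperone (chr10:73183362-73247255, minus strand), fell from 26.8, 32.2 and 32.4 to 18.5, 25.8 and 17.3 (-0.56, SE 0.17, adjusted p = 0.0345). Its locus overlaps FAM149B1 on the opposite strand. The call was lost without MeWo control replicate 2 or 3 or Dox replicate 3 (adjusted p = 0.118 to 0.144), with DESeq2 (adjusted p = 0.0566) and with the replicate number as a block (adjusted p = 0.0509). DNAJA1, a farnesylated partner of HSPA8, had 53.6, 62.6 and 61.9 against 57.8, 58.4 and 58.3 (adjusted p = 0.92).

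**Figure D3:**
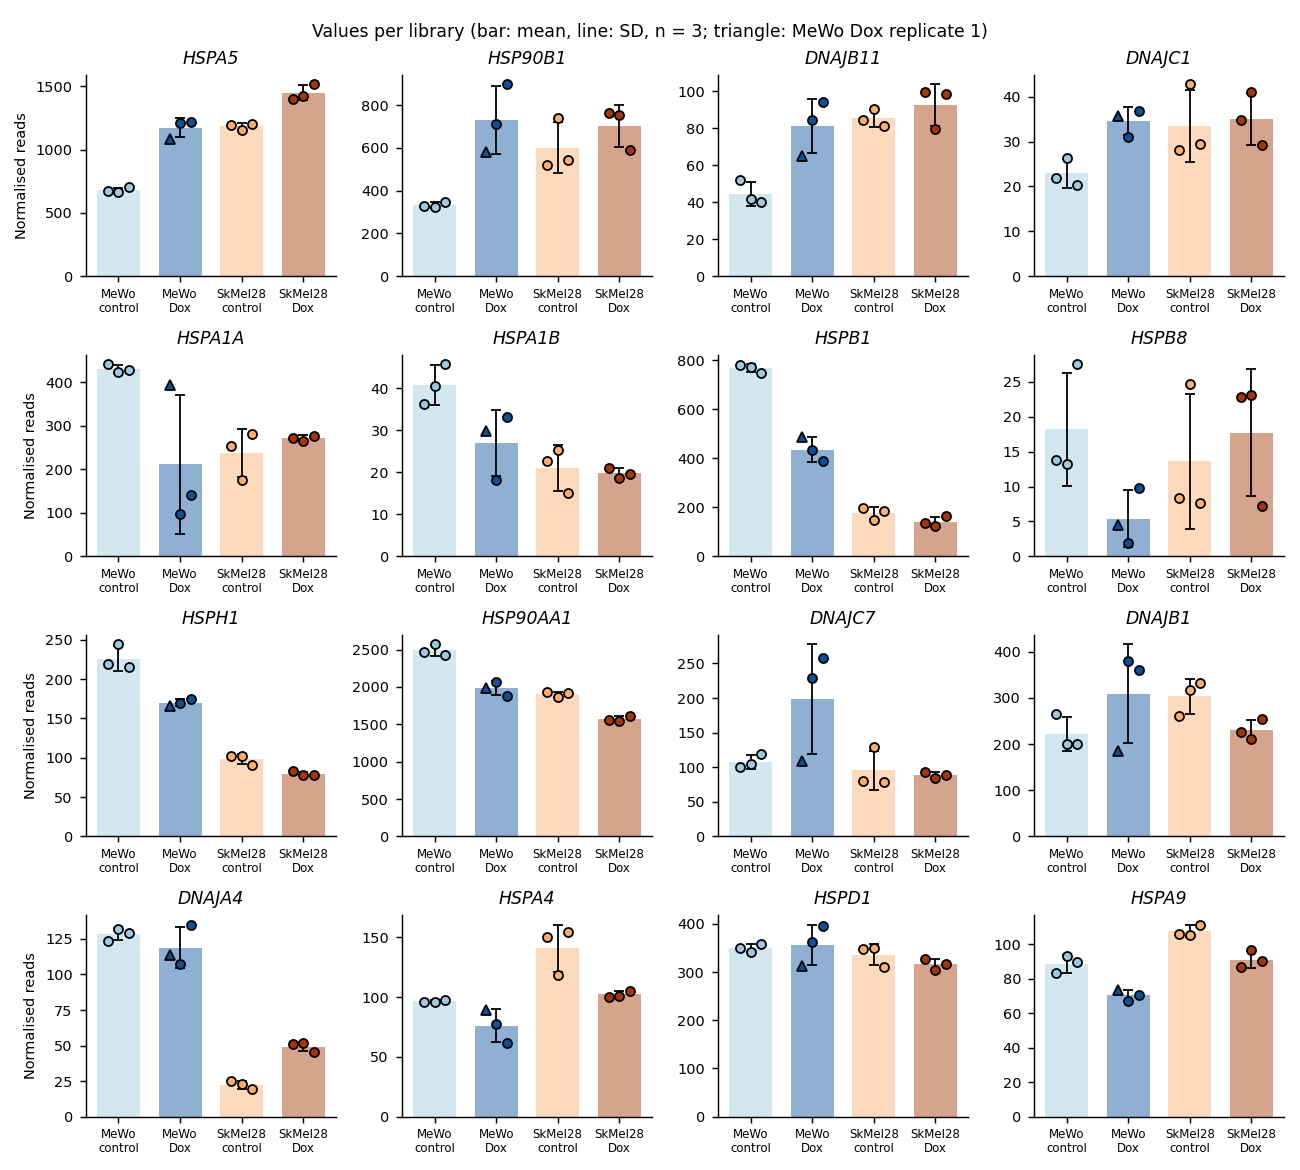
Normalised counts of 16 of the genes in every library of the 4 groups, each panel on an axis of its own from 0; bars are means, lines are SDs (n = 3), and the triangle is MeWo Dox replicate 1. For HSPA1A, DNAJC7 and DNAJB1 the triangle sits by the MeWo control libraries (395, 109 and 186), away from the other MeWo Dox libraries, while for HSPA5 and HSPB1 all 3 Dox libraries lie on 1 side of the controls.

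Leaving out MeWo Dox replicate 1 raised the number called in MeWo from 14 to 25 (41.7%, beside 31.0% of all genes without it), with 10 higher (16.7%, beside 16.0%) and 15 lower (25%, beside 15.0%). All 14 were among the 25, and the 11 added were DNAJB1, DNAJB2, DNAJB6 and DNAJC14, which were higher, and DNAJA3, DNAJC8, DNAJC11, DNAJC13, HSPA1B, HSPA4 and HSPA9, which were lower. By compartment this was 5 higher and none lower in the ER, 5 higher and 10 lower in the cytosol and nucleus, and none higher and 3 lower in mitochondria. The 9 cytosolic and nuclear genes called in all libraries were 2 higher and 7 lower, and the median over the 32 genes was -0.17. With MeWo fitted alone, so that SkMel28 did not enter the spread, 7 of the 60 were called (11.7%, beside 6.44% of all genes). They were 4 higher (6.67%, beside 3.28%) and 3 lower (5%, beside 3.16%). HSPA1A, HSPB8, HSPB11, HSP90AA1, DNAJC1, DNAJC7 and DNAJC9 lost their calls in that fit (adjusted p = 0.0822 to 0.205).

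No mitochondrial gene was called in MeWo by the main limma test, edgeR or DESeq2. At an unadjusted p under 0.05 in limma there were 3 of 8, beside 3860 of all 12616 genes. HSPD1, the HSP60 that folds imported proteins in a closed chamber, had 349.9, 341 and 358 in control and 312, 362 and 396 with Dox (adjusted p = 0.925). HSPE1, the HSP10 lid of that chamber, had 198, 222 and 207 against 177, 177 and 172 (-0.25, adjusted p = 0.114), and 49.2% of its end windows occur in other genes, most of them pseudogenes. HSPD1 and HSPE1 lie on opposite strands of chromosome 2 with overlapping loci. HSPA9, the HSP70 that draws proteins into the matrix, had 83.2, 93.2 and 89.7 against 73.7, 67.1 and 70.4, without overlap (-0.33, SE 0.11, adjusted p = 0.0541). HSPA9 was called without Dox replicate 1 (-0.36, adjusted p = 0.0176), with upper-quartile normalisation (adjusted p = 0.044), with a pseudocount of 0.1 (adjusted p = 0.0448) and with the filter of at least 5 in 3 libraries (adjusted p = 0.0469). DNAJA3, its J partner, had 31.4, 33.0 and 38.9 against 41.5, 26.9 and 21.3, with Dox replicate 1 the highest and replicate 3 the lowest of the 6. The median change of the 8 was -0.23.

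The direction of the cytosolic and mitochondrial medians rests on how libraries are scaled. With values scaled to the spike-ins the median of all genes in MeWo shifted by 0.22, and the medians became 0.08 for the cytosol and nucleus and 0.04 for mitochondria, positive in sign, but -0.15 and -0.19 relative to that shift. The ER median was 0.40, or 0.18 relative to the shift. The calls in MeWo were then 9 higher (15%, beside 16.6% of all genes so scaled) and 4 lower (6.67%, beside 3.03%), in place of 6 and 8. HSPA1A, HSPA2, HSPB1 and HSPB8 are the 4 that remained lower with spike-in scaling. HSP90AA1, HSPH1, HSPB11 and DNAJC9 were no longer called, and DNAJB1, DNAJB2 and DNAJB6 were called higher. With DESeq2 at its own scaling 8 were higher (13.3%, beside 8.85% of all genes) and 4 lower (6.67%, beside 6.29%).

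In SkMel28, 4 of the 60 genes (6.67%) were called, beside 10.9% of all genes. The numbers called in the 2 lines were not compared by a test, and with each line fitted alone they were 7 and 7 (11.7% each), beside 6.44% of all genes in MeWo and 12.3% in SkMel28. Of the 4 called in the main test, 2 were higher (3.33%, beside 5.88%) and 2 lower (3.33%, beside 5.04%), all in the cytosol and nucleus. At an unadjusted p under 0.05 there were 16 of the 60, beside 2989 of all 12616 genes. With spike-in scaling 2 were higher (3.33%, beside 3.13% of all genes) and none lower (beside 4.23%). With upper-quartile normalisation 2 were higher (3.33%, beside 5.96%) and 1 lower (1.67%, beside 4.76%). DNAJA4, a farnesylated J protein (chr15:78264086-78282196, plus strand), had 24.8, 23.2 and 19.2 in SkMel28 control and 50.8, 51.5 and 45.6 in SkMel28 Dox. It rose 2.20-fold without overlap (log2 change 1.11, SE 0.14, adjusted p = 3.12e-05), held in all 22 alternatives. DNAJB4, a heat-inducible J protein, had 2, 4 and 1 reads against 7, 12 and 11 (1.26, SE 0.34, adjusted p = 0.0224), and its call was lost without SkMel28 control replicate 1 or 3 or Dox replicate 2 or 3 (adjusted p = 0.0668 to 0.107) and with DESeq2 (adjusted p = 0.0751).

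HSPA4 was called lower in SkMel28, with 150.3, 118 and 154 in control and 100.04, 101 and 105 with Dox (-0.45, SE 0.14, adjusted p = 0.0465). That call was lost in 13 of 22 alternatives, among them the omission of any 1 MeWo control or SkMel28 Dox library or of SkMel28 control replicate 1 or 3 (adjusted p = 0.0652 to 0.192). DNAJC9 had 35.6, 34.3 and 40.6 against 26.4, 22.4 and 23.3 (-0.60, SE 0.17, adjusted p = 0.0352), and lost its call without any 1 SkMel28 library (adjusted p = 0.0593 to 0.146), with spike-in scaling (adjusted p = 0.0625) and with the replicate block (adjusted p = 0.0558). It was the only member called in both lines. HSP90AA1 and HSPH1 had lower values in all 3 Dox libraries in SkMel28 too, with 1930.0, 1863 and 1917 against 1561, 1539.8 and 1615 and with 102, 102 and 90.4 against 82.5, 78.5 and 78.6. Neither was called (adjusted p = 0.0754 and 0.099). HSP90AA1 was called with DESeq2 (adjusted p = 0.0135), with SkMel28 fitted alone (adjusted p = 0.0408) and without MeWo Dox replicate 1 (adjusted p = 0.015), and HSPH1 without that library (adjusted p = 0.0421). Leaving out MeWo Dox replicate 1, which enters here only through the shared estimate of the spread, gave 11 calls in SkMel28 (18.3%, beside 16.2% of all genes). Of these 5 were higher (8.33%, beside 8.24%) and 6 lower (10%, beside 7.95%).

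HSPA1A and HSPB8, lower in MeWo, were not lower on average in SkMel28. HSPA1A had 253, 175 and 282 in SkMel28 control and 273, 265 and 277 with Dox (0.23, adjusted p = 0.738), and HSPB8 had 8.35, 24.8 and 7.66 against 22.9, 23.1 and 7.25. HSPB1 had 197, 149 and 184 against 134, 122 and 163, with overlap (-0.34, adjusted p = 0.121). DNAJB1 had 260.0, 317 and 333 against 227, 212 and 254, lower without overlap and not called (-0.39, adjusted p = 0.268).

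No ER gene was called in SkMel28 by the main limma test or edgeR, and 1 was by DESeq2. At an unadjusted p under 0.05 in limma there were 3 of 13, beside 2989 of all 12616 genes. Fitted changes were above 0 for 11 of the 13, with a median of 0.22. HSPA5 had 1194, 1153 and 1206 in SkMel28 control and 1402, 1426 and 1517 with Dox, so that all 3 Dox libraries lay above the controls by 22.3% on average (0.29, SE 0.10, adjusted p = 0.0623). HSPA5 was called with DESeq2 (adjusted p = 0.0271) and without MeWo Dox replicate 1 (adjusted p = 0.00999) or 2 (adjusted p = 0.0458), and with SkMel28 fitted alone (adjusted p = 0.0362). HSP90B1 had 522, 739 and 543 against 765, 754 and 590.2, with overlapping groups (0.23, adjusted p = 0.411), and DNAJB11 84.4, 90.1 and 81.2 against 99.7, 79.5 and 98.2. DNAJB9 had 29.2, 34.3 and 27.6 against 47.5, 42.8 and 36.3, higher without overlap and not called (0.46, adjusted p = 0.179). The ER sum went from 2150 ± 103 to 2572 ± 51.9, a difference of 19.6%, and the cytosolic sum from 5944 ± 129 to 5510 ± 103, a difference of -7.30%. As in MeWo, the Dox libraries did not overlap the control libraries in either sum.

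Mitochondrial genes gave no call in SkMel28 by limma, edgeR or DESeq2, and their median change was 0.05. At an unadjusted p under 0.05 in limma there was 1 of 8, beside 2989 of all 12616 genes. HSPE1 had 263, 277 and 243 in control and 242, 215 and 208 with Dox, and HSPA9 had 106, 105 and 112 against 86.7, 96.6 and 90.4. Neither pair of groups overlapped, and neither gene was called (adjusted p = 0.175 and 0.212). HSPD1 had 348, 351 and 311 against 328, 305 and 317. The mitochondrial sum went from 834 ± 46.4 to 772 ± 27.2 in SkMel28, a difference of -7.42%, with overlapping groups.

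Whether the change with Dox differed between the lines was tested by the interaction of line and Dox, the change in MeWo minus that in SkMel28. Of the 60 genes, 4 were called (6.67%, beside 7.09% of all genes): 3 with a higher change in MeWo (5%, beside 3.71%), all in the ER, and 1 with a lower change (1.67%, beside 3.38%). The ER genes were HSP90B1 (0.88, SE 0.22, adjusted p = 0.0265), HSPA5 (0.50, SE 0.14, adjusted p = 0.0342) and DNAJB11 (0.74, SE 0.22, adjusted p = 0.0486). The other was DNAJA4 (-1.23, SE 0.19, adjusted p = 0.00116), with 124, 132 and 129 in MeWo control and 114, 107 and 135 in MeWo Dox. The DNAJA4 call held in all 21 alternatives, whereas those of HSP90B1, HSPA5 and DNAJB11 were lost in 7, 12 and 14 of 21. Over all 13 ER genes the median difference between the lines was -0.09, and it was above 0 for 6 of them. The HSPA5 call was lost without any 1 library other than MeWo Dox replicate 1 and SkMel28 Dox replicate 3 (adjusted p = 0.058 to 0.0958). That of HSP90B1 was lost without any 1 MeWo control library, MeWo Dox replicate 3, SkMel28 control replicate 2 or SkMel28 Dox replicate 3 (adjusted p = 0.0538 to 0.0743), and that of DNAJB11 without any 1 SkMel28 library, MeWo control replicate 2 or 3 or MeWo Dox replicate 2 or 3 (adjusted p = 0.0609 to 0.132). HSPA1A was not called (-1.52, adjusted p = 0.0511), but was with upper-quartile normalisation (adjusted p = 0.0499), with a pseudocount of 5 (adjusted p = 0.0454), with the replicate block (adjusted p = 0.0323) and without MeWo Dox replicate 1 (-2.10, adjusted p = 2.34e-06). With upper-quartile normalisation 2 genes were called higher (3.33%, beside 3.43% of all genes) and 2 lower (3.33%, beside 3.68%). Spike-in scaling shifts the median gene of this contrast by 0.32. Without MeWo Dox replicate 1 the count was 15 (25%, beside 24.7% of all genes), with 6 higher (10%, beside 12.8%) and 9 lower (15%, beside 11.9%). The higher ones were HSP90B1, HSPA5 and DNAJB11 in the ER, and DNAJB1, DNAJB6 and DNAJC7 in the cytosol. The lower ones in the ER were DNAJB9 (-0.84, adjusted p = 0.0205), HSPA13 (-0.88, adjusted p = 0.0307) and DNAJC16 (-0.71, adjusted p = 0.0122). The others lower were DNAJA4, DNAJB4, HSPA1A, HSPB1, HSPB8 and HSPB11.

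**Figure D4:**
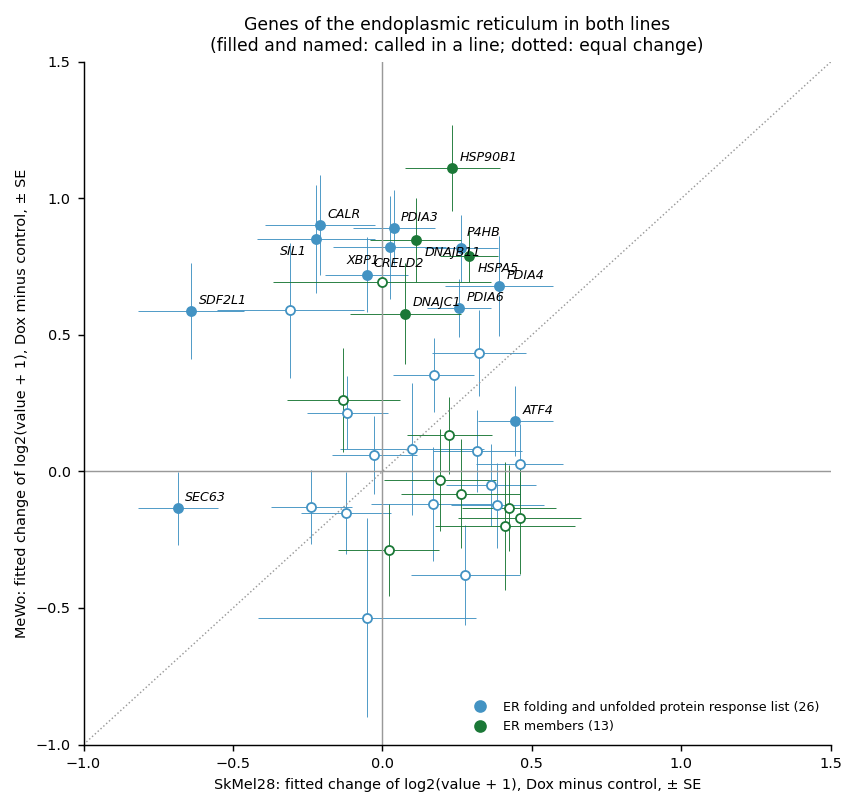
Fitted change of log2(value + 1) with Dox in SkMel28 (horizontal) and in MeWo (vertical) for the 13 ER members and 26 further genes of ER folding and the unfolded protein response; lines are standard errors, and filled, named points are called in at least 1 line. HSP90B1, HSPA5, DNAJB11 and DNAJC1 lie above the dotted line of equal change, with MeWo values of 0.58 to 1.11 against SkMel28 values of 0.08 to 0.29. Of the 13 ER members 6, these included, lie above that line.

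Without Dox the lines differed in about as many of these genes as of all genes: 31 of 60 (51.7%, beside 51.4%), 15 higher in SkMel28 control (25%, beside 26.6%) and 16 lower (26.7%, beside 24.8%). In the ER 5 were higher (38.5%) and 1 lower (7.69%) in SkMel28, and in the cytosol and nucleus 6 were higher (18.8%) and 11 lower (34.4%), beside the same shares of all genes. HSPA2 had 10.1, 8.55 and 10.7 in MeWo control and 95.8, 102 and 112 in SkMel28 control, a 10.6-fold difference (3.28, SE 0.16, adjusted p = 2.71e-11). DNAJA4 went the other way, with 124, 132 and 129 against 24.8, 23.2 and 19.2 (-2.47, SE 0.14, adjusted p = 1.06e-10). HSPB1 had 780.1, 775 and 749 against 197, 149 and 184 (-2.12, SE 0.13, adjusted p = 5.11e-10). None of the 3 had overlapping groups.

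The ER genes that rose with Dox in MeWo were lower in MeWo control than in SkMel28 control: HSPA5 by 0.80 (SE 0.10, adjusted p = 2e-06), HSP90B1 by 0.84, DNAJB11 by 0.93 and DNAJC1 by 0.51 on the log2 scale. The values side by side show how far Dox took them, though both comparisons share the MeWo control libraries. HSPA5 had means of 678 ± 19.2 in MeWo control, 1173 ± 74.8 in MeWo Dox, 1184 ± 27.7 in SkMel28 control and 1449 ± 60.7 in SkMel28 Dox, the middle pair within their spread. HSP90B1 had 332 ± 13.2, 729 ± 160.4, 601 ± 119.8 and 703 ± 97.9 in the same order, and DNAJB11 44.4 ± 6.48, 81.2 ± 14.6, 85.2 ± 4.50 and 92.5 ± 11.2. For HSP90B1 and DNAJB11 the last 3 groups overlapped.

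Cytosolic genes lower in SkMel28 control than in MeWo control were HSPH1 (-1.20), HSPA1B (-0.95), HSPA1A (-0.89), HSP90AB1 (-0.72) and HSP90AA1 (-0.39). Of these HSPA1A lost its call without SkMel28 control replicate 2 (-0.69, adjusted p = 0.122) or without any 1 MeWo control library (adjusted p = 0.0626 to 0.0686), and HSP90AA1 with spike-in scaling (adjusted p = 0.307). DNAJA1 had 53.6, 62.6 and 61.9 against 112, 106 and 117 (0.90, SE 0.12, adjusted p = 4.64e-06), and HSPB11 24.5, 25.6 and 31.7 against 62.1, 45.7 and 49.4 (0.91, adjusted p = 0.000536). In mitochondria 2 were higher and 2 lower in SkMel28 (25% each, beside 26.6% and 24.8% of all genes). The higher ones were HSPA9, whose call was lost in 15 of 21 alternatives, among them edgeR (adjusted p = 0.0577) and the omission of any 1 control or SkMel28 library or of MeWo Dox replicate 3 (adjusted p = 0.0511 to 0.156), and HSPE1, which lost its call without MeWo control replicate 1 or 3 or SkMel28 control replicate 2 (adjusted p = 0.05 to 0.0711). The lower ones were DNAJC15 and DNAJC30. DNAJC15, a J protein of the import motor, had 24.5, 28.4 and 34.3 against 15.9, 15.5 and 4.22 (-1.39, adjusted p = 0.0021). DNAJC4, of little known function and assigned to no compartment here, had 18.7, 9.71 and 9.39 against 4.18, 2.86 and 5.75 (-1.34, adjusted p = 0.0011). HSPA8 and HSPD1 were not called in any comparison.

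**Figure D5:**
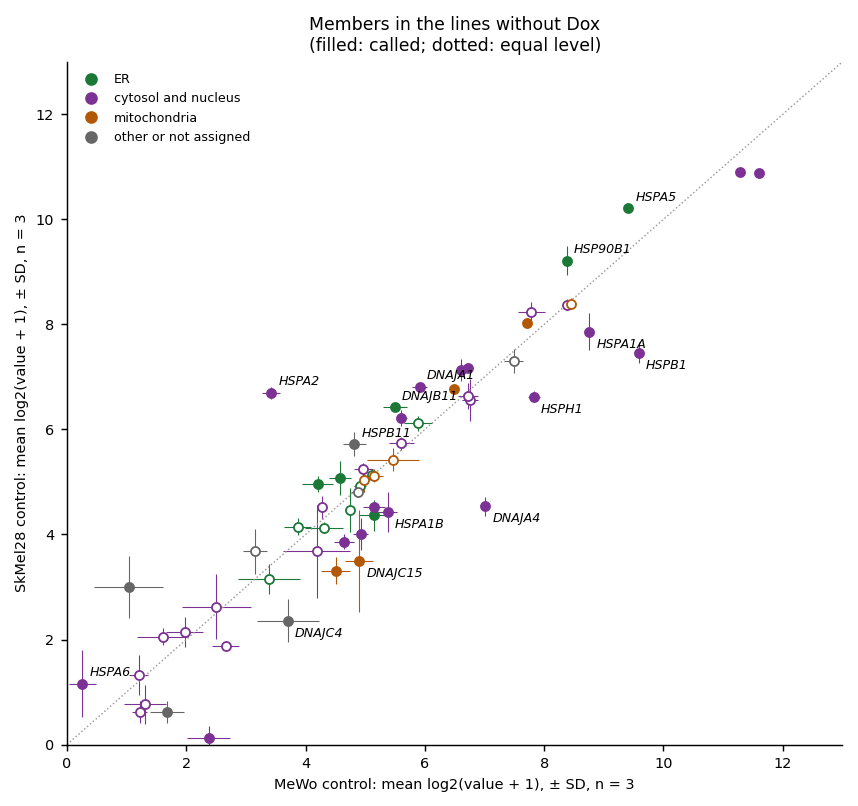
Mean log2(value + 1) of the 60 genes in MeWo control (horizontal) and SkMel28 control (vertical), with SDs (n = 3), by compartment; filled points are called, and the dotted line marks equal level. HSPA2 lies far above the line, DNAJA4 and HSPB1 far below it, and HSPA5, HSP90B1 and DNAJB11 above it.

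Other genes of protein folding were counted from lists written by function. Of 26 listed genes of ER folding and the unfolded protein response, 9 were called higher and none lower in MeWo (34.6%, beside 8.58% of all genes), and in SkMel28 1 was higher and 2 lower (11.5% called, beside 10.9%). The list gave, with MeWo Dox replicate 1 left out, 12 higher (46.2%, beside 16.0% of all genes) and 2 lower in MeWo, and 4 higher and 3 lower in SkMel28. CALR, the calcium-binding lectin chaperone of the ER, had 312, 275 and 285 in MeWo control and 357, 669 and 669.9 in MeWo Dox (0.90, SE 0.18, adjusted p = 0.00239), with 1.20 in place of 0.90 without replicate 1. SDF2L1, which works with BiP and DNAJB11, had 108, 89.7 and 93.6 in MeWo control and 103, 183 and 164 in MeWo Dox (0.59, adjusted p = 0.0307), where Dox replicate 1 lay within the control range. Without it the change was 0.84 (adjusted p = 8.36e-05). In SkMel28 SDF2L1 fell from 186 to 118 on average (-0.64, adjusted p = 0.0267). In SkMel28 the called extremes were SEC63, the J protein of the translocon (-0.68, adjusted p = 0.00259), and ATF4, the transcription factor of the integrated stress response (0.44, adjusted p = 0.0309). In the interaction 5 were called higher and none lower (19.2%, beside 7.09% of all genes).

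Of 23 co-chaperones of cytosolic HSP70 and HSP90, 2 were higher and 2 lower in MeWo (17.4%, beside 16.7% of all genes), led by CDC37, which brings kinases to HSP90 (0.44, from 649 to 887), and PTGES3, the HSP90 co-chaperone p23 (-0.52, from 315 to 222). In SkMel28 BAG4 was higher (0.95) and BAG5 lower (-0.76), both nucleotide exchange factors of HSP70 (8.70% of the list, beside 10.9%). Of 14 subunits of the CCT chaperonin and prefoldin, PFDN1 (0.74) and PFDN5 (0.63) were higher in MeWo (14.3%, beside 16.7% called) and PFDN2 (-0.50) lower in SkMel28 (7.14%, beside 10.9%). PFDN5 had 507, 449.9 and 428 in MeWo control and 451, 909.6 and 884 in MeWo Dox, with Dox replicate 1 again among the controls, and its change was 0.96 without that library. Of 4 heat shock factors and regulators listed, 1 was called in MeWo (25%, beside 16.7% of all genes) and none in SkMel28. It was HSBP1, which binds heat shock factor 1 and was higher in MeWo (0.32, from 298 to 372). The HSBP1 values in SkMel28 gave a change of 0.22 (adjusted p = 0.154). Of 16 genes of mitochondrial import and proteostasis, TOMM20 of the outer membrane was lower in MeWo (-0.43; 6.25%, beside 16.7% called), and the proteases AFG3L2 (-0.67) and LONP1 (-0.56) were lower in SkMel28 (12.5%, beside 10.9%). Without MeWo Dox replicate 1 the calls in MeWo were 4 higher and 3 lower of the 23 co-chaperones, 3 higher and 4 lower of the 14 chaperonin and prefoldin subunits, 2 higher and none lower of the 4 heat shock factors and regulators, and 1 higher and 2 lower of the 16 mitochondrial genes, beside 16.0% higher and 15.0% lower of all genes.

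The elements printed above were also counted over all listed genes. Of 14 listed genes with the ER stress element within 250 bases before a start, 6 were called higher in MeWo (42.9%, beside 8.58% of all genes) and none lower: CALR, CRELD2, HSP90B1, HSPA5, PDIA6 and XBP1. In SkMel28 1 was higher, ERO1B (7.14%, beside 5.88%). Without MeWo Dox replicate 1 there were 6 higher (42.9%, beside 16.0%) and 2 lower (14.3%, beside 15.0%) in MeWo. In SkMel28 there were then 3 higher (21.4%, beside 8.24%), ERO1B, HSPA5 and PDIA6, and 1 lower (7.14%, beside 7.95%). Of 13 with the ER stress element II, SDF2L1 was higher and NAV2 lower in MeWo, and in SkMel28 SDF2L1 was lower. Of 44 listed genes with the heat shock element, 4 were higher (9.09%) and 5 lower (11.4%, beside 8.12%) in MeWo, and 3 higher and 2 lower in SkMel28. Without MeWo Dox replicate 1 these were 6 higher (13.6%, beside 16.0%) and 13 lower (29.5%, beside 15.0%) in MeWo. Of 1112 with CACGTG, 82 were higher (7.37%) and 128 lower (11.5%) in MeWo, and 59 higher (5.31%) and 66 lower (5.94%) in SkMel28, beside 5.88% and 5.04% of all genes there. Of 820 with CATGTG, 82 were higher (10%) and 103 lower (12.6%) in MeWo, and 60 higher (7.32%) and 65 lower (7.93%) in SkMel28. With MeWo Dox replicate 1 left out, 16.4% of the CACGTG genes were higher in MeWo and 21.0% lower, and of the CATGTG genes 15.7% and 19.8%. Among the 6 members with the heat shock element, HSPA6 rose and HSP90AA1 fell in MeWo in the main test. DNAJB6, HSP90AB1, HSPA8 and HSPD1 were not called in either line by that test. DNAJB6 was called higher in MeWo without Dox replicate 1 (0.73, adjusted p = 0.000525) and with spike-in scaling (adjusted p = 0.00708). The numbers of this paragraph are counts of letters beside calls, with no test of their relation, and genes enter them through the members already described.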

How the data were processed

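The deposited table held a signal, read counts that the authors divided by edgeR's effective library size and scaled to 1000000, for 12616 genes and 67 spike-ins in 12 QuantSeq libraries (4 groups of 3). Per the submitters' processing notes reads were checked with FastQC 0.11.7, trimmed with cutadapt 2.8 and aligned to hg38 with STAR 2.5.1b. The counting tool, annotation, use of strand and treatment of reads that fit several genes are not given in the sources used here, and each could move reads between overlapping genes or near-identical copies.

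Every value was a whole multiple of what 1 read was worth (100% within 0.0001), so reads were recovered. The main test was limma 3.58.1 (R 4.3.3) on log2(value + 1), which understates changes of low genes. It used 4 group means over all 12 libraries and a mean-variance trend, was two-sided, and was adjusted by Benjamini-Hochberg over all 12616 genes of a contrast. Spike-ins were left out, and genes were called at an adjusted p under 0.05. The study's edgeR quasi-likelihood test was run on the recovered reads as an alternative (edgeR 4.0.16; 2043 genes called in MeWo and 1419 in SkMel28), as was DESeq2 1.42.0. The script was tested on simulated data. Other alternatives were upper-quartile and spike-in scaling, pseudocounts of 0.1 and 5, a filter of at least 5 in 3 libraries, no trend, each line alone, the replicate number as a block, and the omission of each library.

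Values per library are given for the principal chaperones of each compartment, for every member called in a Dox comparison or the interaction, and for the 4 highest and 4 lowest called members between the lines with a mean of at least 10. From the lists of other folding genes the called extremes are named, with CRELD2, PDIA6, XBP1 and ERO1B named through their promoter letters. Named after their values were seen were DNAJB2, DNAJB6, DNAJC8, DNAJC11, DNAJC13, DNAJC14, DNAJC16, DNAJC30, HSPA13 and NAV2. Members, compartments and lists were chosen with earlier results of these data known. Loci are from GENCODE 44 on hg38 (59 of 60 members; 16 overlap another listed gene), and promoters from RefSeq, GRCh38.p14.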

Additional observations from a re-analysis of the deposited data

Results flagged for a closer look

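In 4 of the 60 genes the change with Dox differed between the lines by the interaction test of limma over all genes, and these are listed for a closer look. The change in MeWo minus that in SkMel28 was 0.88 for HSP90B1, 0.50 for HSPA5 and 0.74 for DNAJB11, which rose in MeWo and were not called in SkMel28. It was -1.23 for DNAJA4, which rose in SkMel28 and was not called in MeWo. DNAJA4 alone of the 4 was called in all 21 alternatives. With 3 libraries in a group no test for a library far from its group was made for single genes.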

How the results depend on the processing

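Among the members with values per library given here, no called value changed sign under any alternative run. The other members were not checked for this. The number of members called in MeWo, 14, was 8 with no mean-variance trend (13.3%, beside 13.4% of all genes). It was 7 with each line fitted alone (11.7%, beside 6.44%). When 1 library was left out it was 9 to 25 (15% to 41.7%, beside 10.2% to 31.0%). In SkMel28, where it was 4, it was 2 (3.33%) with spike-in scaling, with no trend and with the replicate block. All genes gave 7.36%, 8.74% and 9.44% there. With each line alone it was 7 (11.7%, beside 12.3%). Without 1 library it was 1 to 11 (1.67% to 18.3%, beside 6.21% to 16.2%). In the interaction, also 4, it was 7 with spike-in scaling, 1 with no trend and 1 to 15 without 1 library. Medians with spike-in scaling were 0.40 (ER, MeWo), 0.12 (ER, SkMel28), 0.078 (cytosol and nucleus, MeWo), -0.16 (cytosol and nucleus, SkMel28) and 0.035 (mitochondria, MeWo), the cytosolic and mitochondrial ones of MeWo with the sign turned by the shift of all genes. The cytosolic median of SkMel28 was -0.10 with edgeR, -0.10 with DESeq2 and -0.12 with the filter. Without 1 library, medians were 0.0076 to 0.24 (ER, MeWo), 0.14 to 0.26 (ER, SkMel28), -0.26 to -0.13 (cytosol and nucleus, MeWo), -0.14 to -0.043 (the same, SkMel28), -0.25 to -0.16 (mitochondria, MeWo) and -0.017 to 0.13 (the same, SkMel28). The cause was not tested. The count between the lines stayed within 1.5 times under every alternative. It was 26 to 33 without 1 library (43.3% to 55%, beside 45.1% to 56.6% of all genes). Same-numbered libraries of a line had correlated deviations of -0.30 to 0.29, and the numbers were not taken to pair libraries. With the replicate block 3 members were called in the interaction, 1 higher and 2 lower, HSPA5 and DNAJB11 being lost and HSPA1A gained. With 3 libraries a group, changes in genes of few reads, such as HSPA6 and DNAJB4, were limited by depth.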
